A study of Mus musculus with 38 samples.

Results

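The brain clonogenic cultures of the IS group were compared with those of the control group, as 5 IS and 5 control libraries out of 38 mouse libraries in the series. Members were the columns titled IS and control, numbers 1 to 5, of the brain table. Per the labels, the control cultures had no treatment, the IS cultures belonged to an "IS group", and 5 further libraries belonged to an "IR group". All 15 carry the label of 4T1, a breast cancer cell line of the mouse that lacks hormone receptors and spreads to distant organs, in a clonogenic assay on brain. Elsewhere in the series IS stands for exosomes of insulin sensitive adipocytes grown from 3T3-L1 cells, a mouse pre-adipocyte line, and IR for exosomes of insulin resistant ones. The brain labels give no host strain, age, dose, route or time of exposure. They do not say whether tumour cells or the host received the exosomes, and 4T1 is a single established line. The replicates are called biological without naming separate animals or cultures, so p values measure the spread between these libraries only. Their log2 fold changes against control are written IS over control, so a positive value is a higher level in IS cultures. Totals ran from 9599235 to 13272583 counts in IS libraries and from 8790616 to 11533172 in control libraries.

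Exosomes are small vesicles that cells release and that carry protein, lipid and RNA to other cells. In a clonogenic assay, a tissue is dissociated and plated so that single tumour cells that had settled there grow into colonies. Dissociated brain also releases cells of the host that attach and divide in a dish, among them endothelial cells of vessels, microglia, astrocytes, fibroblasts of the meninges and the epithelium of the choroid plexus. In RNA from a whole culture, fewer cells of a type and less RNA per cell cannot be told apart.

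The labelled cell line was checked first. Levels are given in CPM, which are counts scaled to the size of each library over the tested genes, in the order of replicates 1 to 5. Epcam, an adhesion protein of epithelial cells, was at 0.978, 0.466, 0.279, 0.532 and 2.64 CPM in IS cultures, against 2.68, 2.91, 2.45, 1.32 and 0.616 CPM in control cultures. All 10 values were below the 3 CPM that a gene had to reach in at least 3 libraries to be tested. The 19 epithelial genes that mark 4T1 summed to 319.8 to 466 CPM in IS cultures and 383 to 509.5 CPM in control cultures, against 4287 to 4305 CPM in the untreated 4T1 cells of the series' culture experiment. Krt14 and Krt5, basal keratins, had no count in the IS libraries, and Epcam, Krt7, Cldn3, Cldn7, Esrp1, Grhl2, Elf3, Ovol1 and Rab25 were also too low to be tested. The controls had at most 0.698 CPM of Krt14 and 0.958 CPM of Krt5. Xist, the RNA that coats the inactive X chromosome of female cells, was at 276 to 659.9 CPM in IS cultures, against 466 to 573 CPM in control cultures. Cultured 4T1 cells had almost none of it. The label of 4T1 is therefore kept here only as the submitters' label, and the samples are called brain cultures.

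Transcripts of brain cells were present in all 10 libraries. A list of 20 choroid plexus genes summed to 12518 to 19671 CPM in IS cultures and 14268 to 20888 CPM in control cultures, against 21.5 to 25.8 CPM in untreated cultured 4T1 cells. The 17 microglia and macrophage markers summed to 721, 427, 1208, 1739 and 1656 CPM in IS cultures 1 to 5, against 1189, 1122, 912, 1205 and 1159 CPM in control cultures. The IS libraries spread from 427 to 1739 CPM, a wider range than that of the controls on both sides, with IS 1 and IS 2 below every control. The 26 endothelial markers summed to 1167, 2059, 1040.2, 902 and 843 CPM in IS cultures, against 781, 745, 685, 752 and 758 CPM in control cultures. All 5 IS libraries were above all 5 controls in this sum, and IS 2 stood far above the other 4 IS libraries. In the IR group the endothelial sum was 1379 to 2609 CPM and the microglia sum 225 to 653 CPM, so IS 2 lay within the IR range in both. The marker sums of pericytes and smooth muscle overlapped between groups, at 661 to 1626 CPM in IS cultures and 988 to 1400.0 CPM in control cultures.

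Over all tested genes, the distance of a library to a group was taken as the mean absolute difference in log2(CPM + 1) to the mean of that group's other libraries. IS 2 was at 0.272 to the other IS, 0.318 to the control and 0.177 to the IR mean, and IS 1 at 0.286 to the other IS, 0.312 to the control and 0.285 to the IR mean. IS 2 was thus nearest to the IR libraries, IS 1 was about as near to them as to the IS ones, and IS 3, IS 4 and IS 5 were nearest to the IS mean. Each control was nearest to the other controls. The library of column IR4 was at 0.197 to the IS mean and 0.220 to the mean of the other IR libraries. The labels give no reason for these positions, and whether IS 2 or IR4 was exchanged or differed in cell content was not tested. Changes against control are given with all libraries, and for part of the lists and genes also without IS 2. Further calls that were lost without IS 2 are given at the end. IR levels stand beside some results, and the comparisons of IS and of IR with control share the same 5 control libraries.

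**Figure D1:**
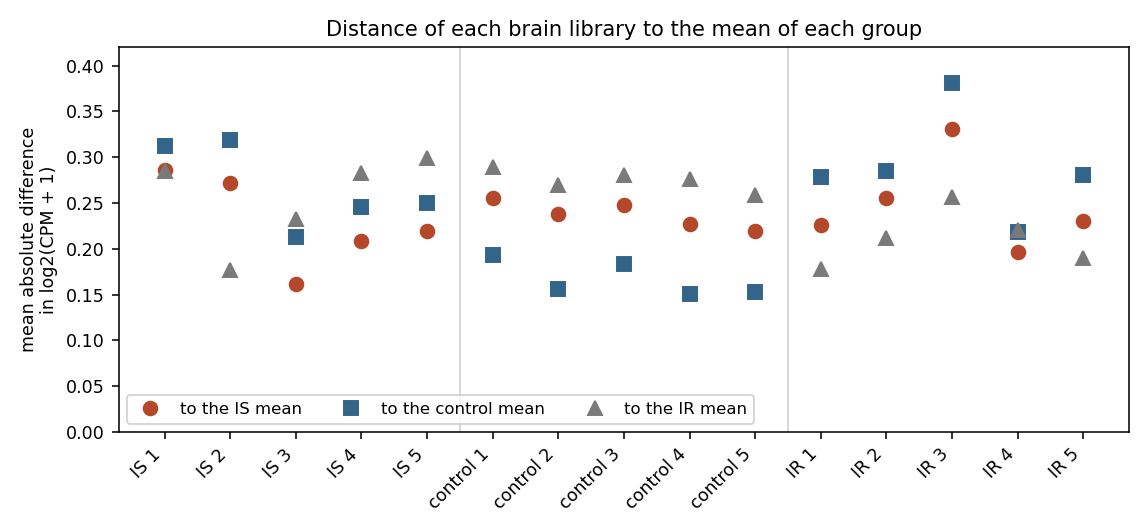
Distance of each of the 15 brain libraries (x axis) to the mean of the IS, control and IR groups, as the mean absolute difference in log2(CPM + 1) over the tested genes (y axis), each group's mean taken without the library itself. IS 2 lies at 0.177 to the IR mean and at 0.272 to the mean of the other IS libraries, and every control lies nearest to the other controls.

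IS cultures differed from control cultures in 835 of 12924 tested genes, or 6.46%, at an adjusted p of 0.05 (quasi-likelihood test of edgeR, Benjamini and Hochberg adjustment over all tested genes). Of these, 435 genes (3.37% of those tested) were higher and 400 (3.1%) were lower, and these are the genes called changed in what follows. The change reached 2-fold in 118 of the higher and 47 of the lower genes, and its median size among called genes was 0.59 on the log2 scale. The median log2 fold change over all tested genes was -0.00145. Every IS library lay above every control for 483 genes and below every control for 526, together 7.81% of those tested. Without IS 2, 323 of 12872 tested genes were higher (2.51%) and 285 lower (2.21%). Of the 435 higher genes 277 were called again in that fit, and of the 400 lower genes 261. The number of higher genes was 267 without control 1, 226 without control 2, 237 without control 3, 231 without control 4 and 268 without control 5. The number of lower genes was 239 without control 2, 251 without control 3 and 256 without control 5. Counts for gene lists below stand against 3.37% higher and 3.1% lower over all tested genes, and no list was tested as a set. Lists of choroid plexus, pigment cell, motile cilia, splicing regulator, focal adhesion and collagen enzyme genes were added after values were seen. Their counts carry no independent weight.

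**Figure D2:**
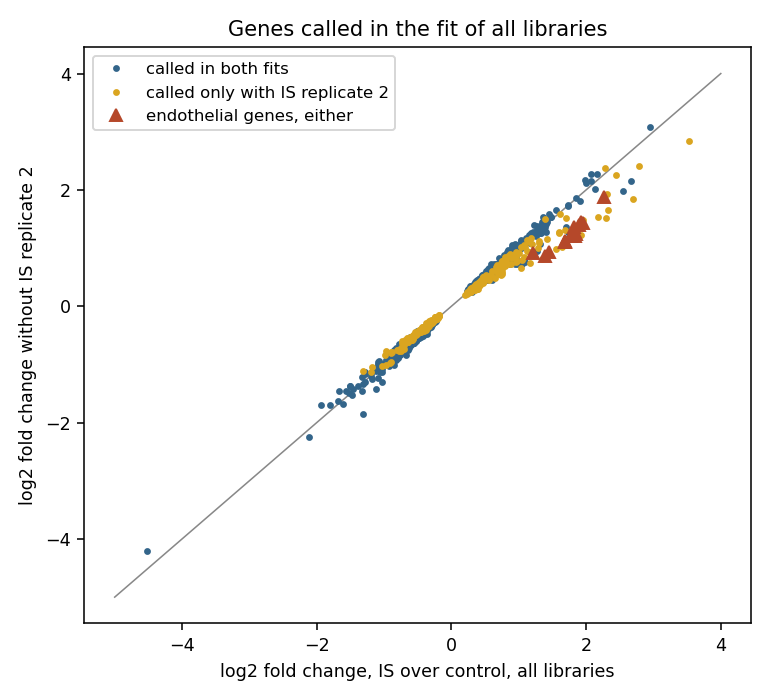
Log2 fold change of IS over control with all libraries (x axis) and without IS replicate 2 (y axis) for the 830 called genes that both fits tested. The line marks equal values, gold points are the 292 genes called only with IS replicate 2, and triangles are 15 endothelial genes, 12 of the endothelial list and Clec14a, Cd34 and Rasip1, which all lie below the line.

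The smallest p values were those of Hbegf and Fos, of which Fos is described with the immediate early genes. Hbegf, a growth factor that binds the epidermal growth factor receptor and is named among mediators of breast cancer spread to brain, was at 38.1, 40.0, 42.3, 33.7 and 39.0 CPM in IS cultures, against 62.1, 68.9, 78.1, 74.1 and 70.1 CPM in control cultures. All IS libraries lay below all controls, and the log2 fold change was -0.87 ± 0.08 (adjusted p = 4.67e-05), where ± is the standard error (SE). Without IS 2 it was -0.87 (adjusted p = 0.000123). Zfp36, which binds and destabilises messenger RNAs of cytokines, was at 21.3 to 33.5 CPM in IS cultures, against 49.6 to 68.6 CPM in control cultures, a log2 fold change of -1.09 ± 0.11 (adjusted p = 9.39e-05). Slc22a23, an orphan member of a family of organic ion transporters, was at 175 to 230.4 CPM in IS cultures, against 357 to 485 CPM in control cultures, a log2 fold change of -1.05 ± 0.11 (adjusted p = 9.39e-05). Among the higher genes the smallest p was that of Tubb2b, a beta tubulin of neural cells, at 46.0 to 70.7 CPM in IS cultures, against 27.9 to 32.0 CPM in control cultures, with a log2 fold change of 0.92 ± 0.10 (adjusted p = 0.000118). Gja1, the gap junction protein connexin 43 that astrocytes use to couple to each other, was at 66.6, 64.9, 56.3, 59.7 and 52.6 CPM in IS cultures, against 34.8, 38.0, 34.4, 37.8 and 33.5 CPM in control cultures. Its IS and control libraries did not overlap, with a log2 fold change of 0.75 ± 0.09 (adjusted p = 0.000195). Slc5a6, a transporter of biotin and pantothenate, was at 79.8 to 101 CPM in IS cultures, against 48.8 to 56.8 CPM in control cultures, a log2 fold change of 0.82 ± 0.10 (adjusted p = 0.000248). Hbegf, Zfp36, Slc22a23, Tubb2b, Gja1 and Slc5a6 kept the call in all 10 fits with 1 IS or control library left out. Hbegf and Gja1 were the only 2 called among the 16 tested members of a list of brain metastasis mediators. Over all tested genes 6.46% were called, and 2 members are too few to read as a result about the list.

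Among genes that averaged at least 10 CPM, the largest rise was that of Tyrp1, an enzyme of melanin synthesis in pigment cells. Tyrp1 was at 45.3, 57.5, 81.5, 101 and 151 CPM in IS cultures, against 8.25, 9.08, 12.6, 13.9 and 12.8 CPM in control cultures. Every IS library was above every control, and IS 5 was the highest. The log2 fold change was 2.94 ± 0.38 (adjusted p = 0.000312), which is 7.68-fold, and 3.08 (adjusted p = 0.000566) without IS 2. Of the 11 tested members of a list of 16 pigment cell genes, 6 rose and 0 fell, with a median of 0.73, against a median of -0.00145 and 3.37% higher over all tested genes. Without IS 2, 5 rose, at a median of 0.72. This list was added after values were seen, so its counts and median carry no independent weight. Its summed level overlapped between groups, at 2396 to 3902 CPM in IS cultures and 2294 to 3341 CPM in control cultures.

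The other 5 were a melanosome protein, Mlana, the melanosome receptor Gpr143, the endothelin receptor Ednrb, the melanosome transporter Oca2 and the receptor kinase Kit. Mlana was at 18.2, 10.5, 10.8, 14.7 and 18.5 CPM in IS cultures, against 1.24, 4.19, 4.15, 3.05 and 3.70 CPM in control cultures, with no overlap, a log2 fold change of 2.16 ± 0.36 (adjusted p = 0.00226). Gpr143 was at 15.3, 12.7, 10.0, 8.94 and 13.5 CPM in IS cultures, against 4.12, 3.61, 6.81, 2.65 and 5.54 CPM in control cultures, also without overlap, a log2 fold change of 1.41 ± 0.25 (adjusted p = 0.00322). Ednrb was at 51.9 to 82.0 CPM in IS cultures, against 35.5 to 48.1 CPM in control cultures (log2 fold change 0.60, adjusted p = 0.00907), Oca2 at 2.70 to 12.1 CPM in IS cultures, against 0.407 to 1.86 CPM in control cultures (log2 fold change 2.08, adjusted p = 0.0252) and Kit at 2.34 to 11.2 CPM in IS cultures, against 0 to 3.26 CPM in control cultures (log2 fold change 2.30, adjusted p = 0.0395). Tyrp1, Mlana, Gpr143 and Ednrb kept the call in all 10 fits with 1 IS or control library left out. Oca2 lost it in 3 (adjusted p up to 0.0643, without IS 5) and Kit in 7 (adjusted p up to 0.0952, without control 5). Oca2 was under 3 CPM in every control and met the filter only through IS or IR libraries, so its call is given as a description. Not all genes of pigment cells were present. Tyr, the first enzyme of melanin synthesis, and Slc45a2 had no count in the IS libraries, and Dct and Pmel averaged 0.199 and 1.08 CPM there. Mitf, the transcription factor that drives these genes in melanocytes, was at 13.2 to 32.3 CPM in IS cultures, against 19.2 to 27.5 CPM in control cultures (log2 fold change 0.04, adjusted p = 0.948). Sox10, a factor of the neural crest, was at 11.6 to 24.0 CPM in IS cultures, against 7.42 to 14.2 CPM in control cultures (log2 fold change 0.73, adjusted p = 0.0920). DESeq2, an alternative test, called Sox10 with all libraries (adjusted p = 0.0390). In IR cultures Tyrp1 averaged 72.0 ± 39.1 and Mlana 10.0 ± 5.02 CPM (SD, n = 5).

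The promoter of Tyrp1 is shown because it carries the element through which Mitf is known to act, while Tyrp1 rose and Mitf did not pass the test. The 300 bases run from 250 before to 50 after the annotated start, at chr4:80833963-80834262 on the plus strand of GRCm38.p6 in RefSeq, with the element TCATGTG, the M-box core, in capitals.
Tyrp1: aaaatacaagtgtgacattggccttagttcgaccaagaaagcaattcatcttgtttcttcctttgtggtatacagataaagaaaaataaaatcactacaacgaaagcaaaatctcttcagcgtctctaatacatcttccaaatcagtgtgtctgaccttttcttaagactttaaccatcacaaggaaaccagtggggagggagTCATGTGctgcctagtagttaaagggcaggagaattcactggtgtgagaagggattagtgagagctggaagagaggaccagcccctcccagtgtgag
The element begins at -47, counted from the start. On either strand it was present in 1239 of the 32851 promoters of this length, or 3.77%. Promoters of 10 of the 16 listed pigment cell genes could be matched by symbol, and 5 of them held it, those of Tyrp1, Tyr, Dct, Slc24a5 and Trpm1. Of these 5, Tyrp1 was called, Slc24a5 did not pass, and Tyr, Dct and Trpm1 were too low to be tested. A match describes the letters and does not show that a factor binds there.

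The choroid plexus is an epithelium that makes cerebrospinal fluid, and its transcripts were at high levels in both groups. Of 20 listed genes, all tested, 4 rose and 2 fell (3.37% higher and 3.1% lower over all tested genes). Their median was 0.29, and the same counts were found without IS 2 (median 0.42). Slc29a4, a monoamine and adenosine transporter, was at 230.2, 211, 212, 243 and 252 CPM in IS cultures, against 74.2, 84.7, 117, 112 and 116 CPM in control cultures. The groups did not overlap, and the log2 fold change was 1.19 ± 0.14 (adjusted p = 0.000195). Ttr, transthyretin, the carrier of thyroid hormone that this epithelium secretes, was at 2117, 1073, 1589.7, 1412 and 3328 CPM in IS cultures, against 235, 856, 803, 755 and 1053 CPM in control cultures. Its lowest IS library, IS 2, was just above the highest control, with a log2 fold change of 1.36 ± 0.36 (adjusted p = 0.0333). Trpm3, a cation channel, was at 271 to 364 CPM in IS cultures, against 205 to 264 CPM in control cultures (log2 fold change 0.45, adjusted p = 0.00821). Kcne2, a potassium channel subunit, was at 139 to 257 CPM in IS cultures, against 74.5 to 139 CPM in control cultures (log2 fold change 0.71, adjusted p = 0.0346). Ptgds, which makes prostaglandin D and is secreted by meninges and choroid plexus, is not in the list and was at 184 to 300.3 CPM in IS cultures, against 72.9 to 119 CPM in control cultures, a log2 fold change of 1.19 ± 0.17 (adjusted p = 0.000603).

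In the other direction, Ecrg4, a secreted peptide precursor of this epithelium, was at 105, 45.1, 59.3, 53.9 and 68.9 CPM in IS cultures, against 143, 179, 175, 159.7 and 154 CPM in control cultures. All IS libraries lay below all controls, with a log2 fold change of -1.29 ± 0.21 (adjusted p = 0.00162). Slc4a10, a sodium bicarbonate transporter of the same cells, was at 355 to 412 CPM in IS cultures, against 625 to 679 CPM in control cultures, a log2 fold change of -0.74 ± 0.13 (adjusted p = 0.00230). Igfbp2 and Enpp2, 2 secreted proteins of choroid plexus, did not pass the test, at -0.37 (adjusted p = 0.231) and 0.10 (adjusted p = 0.708). Slc29a4, Trpm3, Ptgds, Ecrg4 and Slc4a10 kept the call in all 10 fits with 1 IS or control library left out. Ttr lost it in 5 (adjusted p up to 0.0815, without IS 5) and Kcne2 in 8 (adjusted p up to 0.0732, without control 3). The count of higher members was 2 without IS 1, 2 without IS 5, 2 without control 2, 2 without control 3 and 2 without control 4.

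Genes of motile cilia, the beating appendages of ependymal cells, were lower in part. Of 13 tested members of a list of 21, 5 fell and 1 rose, with a median of -0.65. Without IS 2, 3 fell and 0 rose, at -0.53. Dnai1, a dynein intermediate chain of the ciliary axoneme, was at 4.07, 2.89, 5.58, 4.68 and 4.98 CPM in IS cultures, against 12.7, 12.1, 13.9, 12.6 and 11.6 CPM in control cultures. No library overlapped, with a log2 fold change of -1.50 ± 0.21 (adjusted p = 0.000626). Foxj1, the transcription factor that switches on the motile cilia programme, was at 48.6 to 65.2 CPM in IS cultures, against 77.8 to 113 CPM in control cultures, a log2 fold change of -0.62 ± 0.13 (adjusted p = 0.00877). Dnah6, a dynein heavy chain, was at 24.6 to 49.3 CPM in IS cultures, against 50.9 to 69.4 CPM in control cultures (log2 fold change -0.80, adjusted p = 0.0153). Capsl (log2 fold change -0.97, adjusted p = 0.0346) also fell, at a level of a few CPM, and Tppp3, which binds tubulin, rose (log2 fold change 0.80, adjusted p = 0.0397). Dnai1, Foxj1 and Dnah6 kept the call in all 10 fits with 1 IS or control library left out. Capsl lost it in 6 (adjusted p up to 0.0895, without control 5) and Tppp3 in 8 (adjusted p up to 0.0956, without IS 5). The number of lower members was 3 without IS 2, 3 without control 3, 3 without control 4 and 3 without control 5.

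**Figure D3:**
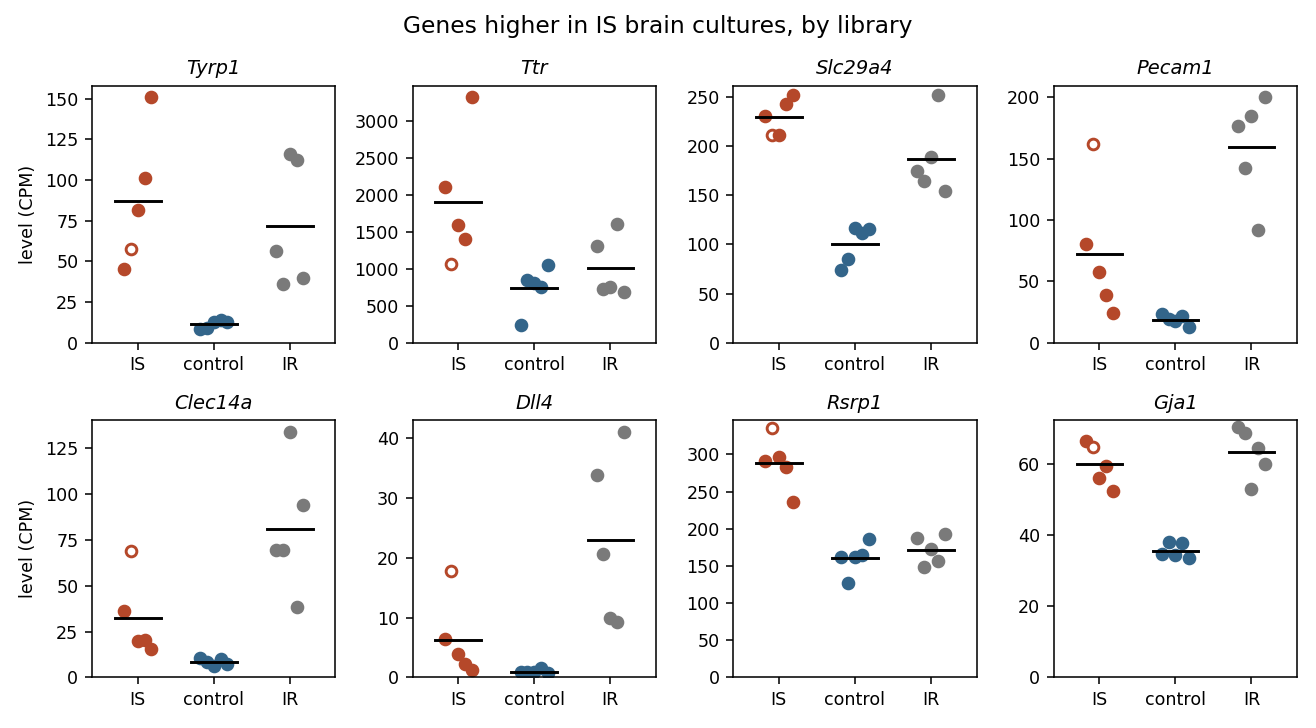
Level in CPM (y axis, linear, from 0) of 8 genes higher in IS cultures, in each IS, control and IR library (x axis), with lines at the group means and IS replicate 2 as an open circle. Tyrp1 and Slc29a4 separate all IS from all control libraries, while for Pecam1, Clec14a and Dll4 IS replicate 2 is the highest IS library and lies among the IR libraries.

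Endothelial genes rose in part, and the size of the rise depended on IS 2. Of 25 tested endothelial markers, 12 rose and 0 fell, with a median of 1.25, and without IS 2, 8 rose, with a median of 0.91. The count was 7 without control 2, 5 without control 3 and 4 without control 5. Pecam1, an adhesion protein at endothelial junctions, was at 80.6, 162, 57.5, 38.5 and 23.8 CPM in IS cultures, against 23.1, 19.5, 17.6, 21.4 and 12.4 CPM in control cultures. IS 2 was the highest by a wide margin, but all 5 IS libraries were above all controls, with a log2 fold change of 1.95 ± 0.39 (adjusted p = 0.00841) with and 1.43 (adjusted p = 0.0127) without IS 2. Cldn5, the tight junction protein of the blood-brain barrier, was at 30.5, 40.3, 15.8, 10.4 and 5.20 CPM in IS cultures, against 3.30, 5.93, 5.64, 4.89 and 1.76 CPM in control cultures. IS 5 overlapped the controls, and the log2 fold change was 2.26 ± 0.47 (adjusted p = 0.00907) with and 1.88 (adjusted p = 0.0194) without IS 2.

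Egfl7, a secreted protein of endothelium, was at 45.2, 84.1, 27.2, 21.2 and 12.4 CPM in IS cultures, against 9.28, 11.8, 10.4, 9.98 and 9.59 CPM in control cultures, a log2 fold change of 1.90 ± 0.40 (adjusted p = 0.0104) with and 1.39 (adjusted p = 0.0167) without IS 2. Clec14a, a C-type lectin of vessels that is not in the list, was at 36.2, 69.0, 19.9, 20.4 and 15.5 CPM in IS cultures, against 10.6, 8.61, 6.17, 9.98 and 7.13 CPM in control cultures, a log2 fold change of 1.92 ± 0.40 (adjusted p = 0.00983) with and 1.45 (adjusted p = 0.0170) without it. Both kept the 2 groups apart, and in both IS 5 was the lowest IS library and IS 2 the highest. Erg, a transcription factor that maintains endothelial identity, was at 25.0, 46.4, 22.0, 9.04 and 6.56 CPM in IS cultures, against 7.32, 6.87, 5.11, 6.92 and 4.58 CPM in control cultures. Its IS 5 value fell within the control range, and the log2 fold change was 1.82 ± 0.43 (adjusted p = 0.0196) with and 1.37 (adjusted p = 0.0423) without IS 2. Esam, another junction protein, was at 26.6 to 76.7 CPM in IS cultures, against 13.9 to 23.3 CPM in control cultures (log2 fold change 1.21, adjusted p = 0.0136, with and 0.91, adjusted p = 0.0211, without IS 2), and Tie1, a receptor kinase of the angiopoietin pathway, was at 17.4 to 99.7 CPM in IS cultures, against 9.15 to 16.8 CPM in control cultures (log2 fold change 1.69, adjusted p = 0.0231, and 1.11, adjusted p = 0.0439). Ptprb, a phosphatase that restrains that pathway, had a log2 fold change of 1.84 (adjusted p = 0.0207) with and 1.24 (adjusted p = 0.0422) without IS 2. For Mmrn2, a matrix protein of vessels, these values were 1.68 (adjusted p = 0.0234) and 1.11 (adjusted p = 0.0439).

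The call was lost without IS 2 for Robo4, a guidance receptor (log2 fold change 1.83, adjusted p = 0.0312, with and 1.20, adjusted p = 0.0732, without), Cdh5, the cadherin of endothelial junctions (log2 fold change 1.39, adjusted p = 0.0335, and 0.86, adjusted p = 0.0736), and the transcription factors Sox7 (log2 fold change 1.69, adjusted p = 0.0280, and 1.12, adjusted p = 0.0594) and Sox18 (log2 fold change 1.45, adjusted p = 0.0371, and 0.93, adjusted p = 0.0882). Outside the list, it was also lost for Cd34, a sialomucin of vessels and progenitors (log2 fold change 1.80, adjusted p = 0.0236, and 1.28, adjusted p = 0.0552), and for Rasip1, which is needed for vessel lumens (log2 fold change 1.78, adjusted p = 0.0270, and 1.21, adjusted p = 0.0604). Kdr and Flt1, the receptors of vascular endothelial growth factor, Eng, a co-receptor of the transforming growth factor beta family, Slc2a1, the glucose transporter of the barrier, and Vwf, the clotting factor, did not pass the test with all libraries. Their log2 fold changes were 0.60 (adjusted p = 0.168) for Kdr, 0.70 (adjusted p = 0.0753) for Flt1, 0.42 (adjusted p = 0.261) for Eng, -0.02 (adjusted p = 0.911) for Slc2a1 and -0.06 (adjusted p = 0.921) for Vwf. Flt1 was called by DESeq2 with all libraries (adjusted p = 0.0224). Pecam1, Cldn5, Clec14a, Egfl7 and Esam kept the call in all 10 fits with 1 IS or control library left out. Erg lost it in 1 (adjusted p up to 0.0508, without control 5), Tie1 in 3 (adjusted p up to 0.0601, without control 5), Ptprb in 2 (adjusted p up to 0.0548, without control 3) and Mmrn2 in 3 (adjusted p up to 0.0626, without control 3). In IR cultures Pecam1 averaged 159 ± 43.1, Cldn5 43.5 ± 12.9 and Erg 57.6 ± 19.0 CPM (SD, n = 5). The microglia marker sum moved the other way between these libraries, lowest in IS 2, and its part in these results was not tested.

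Growth factors and receptors that act on vessels partly followed. Of 15 tested genes of vascular endothelial growth factor and angiopoietin signalling, 4 rose and 0 fell (median 0.60), and 3 rose without IS 2 (median 0.40). The count was 7 without IS 5, 2 without control 2, 2 without control 3 and 2 without control 5. Angpt2, the ligand that loosens vessels through the Tek receptor, was at 239, 372, 204, 178 and 144 CPM in IS cultures, against 124, 117, 107, 123 and 107 CPM in control cultures. The groups did not overlap, and the log2 fold change was 0.97 ± 0.21 (adjusted p = 0.0122) with and 0.74 (adjusted p = 0.0171) without IS 2. Vegfb, a growth factor ligand, was at 62.7 to 76.4 CPM in IS cultures, against 47.7 to 54.0 CPM in control cultures (log2 fold change 0.40, adjusted p = 0.0128, with and 0.44, adjusted p = 0.0138, without). Apln, the peptide apelin of sprouting tip cells, was at 177, 207, 109, 39.6 and 30.1 CPM in IS cultures, against 37.7, 40.5, 35.2, 37.4 and 35.4 CPM in control cultures. IS 4 and IS 5 lay at the level of the controls, and the log2 fold change was 1.60 ± 0.44 (adjusted p = 0.0383) with and 1.27 (adjusted p = 0.0940) without IS 2. Tie1 was the remaining called member. Angpt2 and Vegfb kept the call in all 10 fits with 1 IS or control library left out. Apln lost it in 8 (adjusted p up to 0.0940, without IS 2).

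Notch signalling selects tip and stalk cells in sprouting vessels and also acts in glia. Of 10 tested members 4 rose and 1 fell, and without IS 2 0 rose and 1 fell. The count of higher members was 0 without IS 2, 1 without control 1, 1 without control 2, 0 without control 3, 0 without control 4 and 0 without control 5. Dll4, the ligand of tip cells, was at 6.35, 17.7, 3.91, 2.23 and 1.28 CPM in IS cultures, against 0.825, 0.814, 0.852, 1.63 and 0.704 CPM in control cultures. IS 2 was the highest and IS 5 lay within the control range, and the log2 fold change was 2.69 ± 0.71 (adjusted p = 0.0326) with and 1.84 (adjusted p = 0.0880) without it. Nrarp, a target gene that limits Notch signalling, was at 2.77, 7.09, 2.05, 1.38 and 0.603 CPM in IS cultures, against 0.103, 0.814, 0.319, 0 and 0 CPM in control cultures, a log2 fold change of 3.53 ± 0.92 (adjusted p = 0.0307) with and 2.84 (adjusted p = 0.0740) without IS 2. Here too IS 2 was the highest and IS 5 lay within the control range, and 2 controls had no count. Notch4, the receptor of endothelium, had a log2 fold change of 1.67 (adjusted p = 0.0280) with and 1.09 (adjusted p = 0.0594) without IS 2, and the ligand Jag2 one of 1.34 (adjusted p = 0.0397) and 0.81 (adjusted p = 0.0828). Notch2, a receptor that many cell types carry, fell, at 227 to 334 CPM in IS cultures, against 394 to 450.1 CPM in control cultures (log2 fold change -0.53, adjusted p = 0.00583, with and -0.52, adjusted p = 0.0148, without). Dll4 and Nrarp were among the 5 called genes whose fold change moved most when IS 2 was left out. The other 3 were Zfp366 (log2 fold change 2.30, adjusted p = 0.0304, with and 1.52, adjusted p = 0.0697, without), Myct1 (log2 fold change 1.92, adjusted p = 0.0340, and 1.23, adjusted p = 0.0843) and Gimap8 (log2 fold change 2.33, adjusted p = 0.0276, and 1.65, adjusted p = 0.0662). Nrarp, Zfp366 and Gimap8 met the filter of 3 CPM in at least 3 libraries only with the IR libraries included. They were not tested in the fits without IR libraries, so their calls are given as a description. Dll4 and Jag2 were under 3 CPM in every control and met the filter only through IS or IR libraries. Their calls are a description too, and the 4 higher members include Dll4, Jag2 and Nrarp. Notch2 kept the call in all 10 fits with 1 IS or control library left out. Notch4 lost it in 5 (adjusted p up to 0.0700, without control 5), Nrarp in 5 (adjusted p up to 0.0740, without IS 2), Dll4 in 6 (adjusted p up to 0.0880, without IS 2) and Jag2 in 7 (adjusted p up to 0.0944, without control 5).

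Immediate early genes, which growth factors, stress and calcium switch on within minutes through factors already present in the cell, were lower in part. Of 18 tested members 5 fell and 0 rose (3.1% lower over all tested genes), with a median of -0.24, and 7 fell without IS 2, at a median of -0.16. With any other single library left out, 5 fell. Fos, a subunit of the transcription factor activator protein 1, was at 20.3, 22.1, 24.9, 21.2 and 28.8 CPM in IS cultures, against 64.3, 65.4, 59.8, 65.8 and 81.9 CPM in control cultures. The highest IS library, IS 5, was below the lowest control, and the log2 fold change was -1.52 ± 0.14 (adjusted p = 4.67e-05), or 2.87-fold lower, with and -1.48 (adjusted p = 0.000123) without IS 2. Ier2, a nuclear protein of the same early wave, was at 10.2, 11.6, 7.72, 9.15 and 7.54 CPM in IS cultures, against 25.8, 26.1, 24.8, 30.8 and 32.6 CPM in control cultures. The groups were again apart, with a log2 fold change of -1.60 ± 0.17 (adjusted p = 9.39e-05). Junb, a partner of Fos in that factor, was at 93.4, 87.9, 72.2, 70.6 and 80.9 CPM in IS cultures, against 116, 124, 128, 139 and 143 CPM in control cultures, a log2 fold change of -0.68 ± 0.09 (adjusted p = 0.000500) without overlap.

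Egr1, a zinc finger factor of growth signalling, was at 38.8, 63.7, 29.0, 32.5 and 21.9 CPM in IS cultures, against 71.1, 60.7, 67.4, 82.1 and 96.7 CPM in control cultures. IS 2 was the only IS library within the control range, and the log2 fold change was -1.03 ± 0.23 (adjusted p = 0.0143) with and -1.29 (adjusted p = 0.000977) without it. Dusp1, a phosphatase that ends kinase signalling, was at 176 to 223 CPM in IS cultures, against 248 to 282 CPM in control cultures, a log2 fold change of -0.40 ± 0.09 (adjusted p = 0.0141). Fos, Ier2, Junb, Egr1 and Dusp1 kept the call in all 10 fits with 1 IS or control library left out. The 13 tested members that did not pass included Jun (log2 fold change -0.17, adjusted p = 0.263), Myc (log2 fold change 0.13, adjusted p = 0.603) and Atf3 (log2 fold change 0.27, adjusted p = 0.617). In IR cultures Fos averaged 21.9 ± 5.09, Ier2 14.2 ± 3.61 and Egr1 55.0 ± 12.2 CPM (SD, n = 5).

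The promoters of Fos and Junb are shown because both genes fell and both are known to respond to cAMP signalling. The core TGACG of the cAMP response element is in capitals, and both stretches run from 250 bases before to 50 after the start in RefSeq on GRCm38.p6. Fos lies at chr12:85473640-85473939 on the plus strand and Junb at chr8:84978699-84978998 on the minus strand.
Fos: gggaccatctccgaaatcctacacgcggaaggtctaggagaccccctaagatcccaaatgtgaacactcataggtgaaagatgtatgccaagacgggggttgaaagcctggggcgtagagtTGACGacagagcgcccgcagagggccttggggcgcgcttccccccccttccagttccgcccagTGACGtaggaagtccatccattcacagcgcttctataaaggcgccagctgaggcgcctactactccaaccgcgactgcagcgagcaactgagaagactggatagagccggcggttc
Junb: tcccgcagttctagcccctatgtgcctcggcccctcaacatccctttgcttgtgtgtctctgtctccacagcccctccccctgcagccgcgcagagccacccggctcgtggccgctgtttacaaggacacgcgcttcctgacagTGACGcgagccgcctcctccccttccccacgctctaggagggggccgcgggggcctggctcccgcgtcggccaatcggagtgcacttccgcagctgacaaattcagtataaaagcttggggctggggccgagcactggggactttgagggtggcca
In Fos the core begins at -129 and at -66 from the start, and in Junb at -106. It is short, and on either strand 6837 of 32851 promoters, or 20.8%, held it. Of the 14 immediate early genes whose promoter could be matched, 8 held it, namely Fos, Fosb, Junb, Atf3, Klf2, Klf4, Nr4a1 and Dusp1. Of these 8, Fos, Junb and Dusp1 fell and 5 did not pass the test. Ier2 and Egr1, which also fell, are not among the 8, as they lacked either the core or a matched promoter. Whether the core has a part in the falls was not tested.

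Targets of the growth regulators YAP and TAZ and the matricellular proteins, which sit in the matrix and modulate adhesion, were lower in part. Of 14 tested members 4 fell and 0 rose, with and without IS 2, at medians of -0.32 and -0.31. Ccn1, a secreted matricellular protein, was at 462, 446, 422, 405 and 439 CPM in IS cultures, against 625, 651, 671, 669.8 and 721 CPM in control cultures. No library overlapped, with a log2 fold change of -0.62 ± 0.08 (adjusted p = 0.000350). Thbs1, thrombospondin, an inhibitor of vessel growth, was at 1779, 1718, 2757, 2410.3 and 2512 CPM in IS cultures, against 3703, 4045, 4089, 4040.4 and 4199 CPM in control cultures. The highest IS value, in IS 3, was below the lowest control, and the log2 fold change was -0.85 ± 0.15 (adjusted p = 0.00344). Amotl2, a regulator of YAP at junctions, was at 268 to 299 CPM in IS cultures, against 339 to 407 CPM in control cultures (log2 fold change -0.39, adjusted p = 0.00188). Ccn4, of the same family as Ccn1, was at 34.2 to 43.7 CPM in IS cultures, against 50.3 to 63.1 CPM in control cultures (log2 fold change -0.56, adjusted p = 0.00258). Ccn2 did not pass in edgeR, at 356 to 624 CPM in IS cultures, against 551 to 689 CPM in control cultures (log2 fold change -0.55, adjusted p = 0.0517). DESeq2 called Ccn2 with all libraries (adjusted p = 0.0152). Ccn5, another member of that family and not in the list, was at 30.1 to 50.8 CPM in IS cultures, against 86.8 to 168 CPM in control cultures (log2 fold change -1.48, adjusted p = 0.00200). Ccn1, Thbs1, Amotl2, Ccn4 and Ccn5 kept the call in all 10 fits with 1 IS or control library left out.

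Of 11 enzymes that cross-link and hydroxylate collagen 3 fell and 0 rose, and 3 fell in every fit with 1 library left out. Lox, lysyl oxidase, was at 378, 306, 363, 279 and 325 CPM in IS cultures, against 912, 821, 1037, 881 and 899.9 CPM in control cultures. The groups were far apart, with a log2 fold change of -1.46 ± 0.17 (adjusted p = 0.000195), or 2.76-fold lower, and -1.42 (adjusted p = 0.000566) without IS 2. Loxl2, a related oxidase, was at 428, 341, 475, 392 and 479 CPM in IS cultures, against 801, 819, 997, 953 and 914 CPM in control cultures, a log2 fold change of -1.08 ± 0.15 (adjusted p = 0.000417), again without overlap. P4ha1, a prolyl hydroxylase that stabilises the collagen helix, was at 266 to 288 CPM in IS cultures, against 334 to 425 CPM in control cultures (log2 fold change -0.47, adjusted p = 0.000857). The members that did not pass had log2 fold changes on both sides of 0, and the median of the list was -0.04.

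Of 18 tested matrix proteases and their inhibitors 3 fell and 0 rose, with and without IS 2 (3.1% lower over all tested genes). Mmp2 and Adamts5 were among the 3. Mmp2, a gelatinase, was at 65.3 to 101 CPM in IS cultures, against 113 to 151 CPM in control cultures (log2 fold change -0.70, adjusted p = 0.00322). Adamts5, an aggrecanase, was at 23.2 to 43.6 CPM in IS cultures, against 54.0 to 72.9 CPM in control cultures (log2 fold change -0.89, adjusted p = 0.0136). Of 17 collagen chains 3 fell and 1 rose (3.1% lower and 3.37% higher over all tested genes). Col12a1, a chain on the surface of fibrils, was at 137, 163, 184, 117 and 126 CPM in IS cultures, against 269.7, 268, 199, 278 and 272 CPM in control cultures (log2 fold change -0.82 ± 0.17, adjusted p = 0.0110), Col5a2 at 259 to 356 CPM in IS cultures, against 407 to 575 CPM in control cultures (log2 fold change -0.72, adjusted p = 0.0192) and Col18a1, the source of endostatin, at 412 to 617 CPM in IS cultures, against 658 to 823 CPM in control cultures (log2 fold change -0.48, adjusted p = 0.0249). Col5a3 was at 30.5 to 38.1 CPM in IS cultures, against 12.5 to 25.2 CPM in control cultures, higher in IS cultures (log2 fold change 0.89, adjusted p = 0.0212). Col1a1, the main fibrillar chain, was at 162 to 276 CPM in IS cultures, against 182 to 281 CPM in control cultures and did not pass (log2 fold change -0.16, adjusted p = 0.709). Mmp2, Adamts5 and Col12a1 kept the call in all 10 fits with 1 IS or control library left out. Col5a2 lost it in 1 (adjusted p up to 0.0503, without IS 2), Col18a1 in 4 (adjusted p up to 0.0699, without control 3) and Col5a3 in 3 (adjusted p up to 0.0583, without control 2).

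Focal adhesions anchor actin fibres to the matrix. Of 22 listed components 8 fell and 0 rose (median -0.19), and 7 fell without IS 2. The count was 5 without control 2, 5 without control 4 and 5 without control 5. Actn1, which cross-links actin, was at 636, 694, 677, 689.6 and 691 CPM in IS cultures, against 948, 915, 1016, 951 and 978 CPM in control cultures. The libraries within each group were close together and the groups apart, with a log2 fold change of -0.51 ± 0.06 (adjusted p = 0.000267). Tns1, tensin, which ties integrins to actin, was at 761, 859, 921, 969 and 868 CPM in IS cultures, against 1285, 1381, 1451, 1321 and 1248 CPM in control cultures, without overlap, with a log2 fold change of -0.61 ± 0.08 (adjusted p = 0.000307). Plec, the linker plectin (log2 fold change -0.45, adjusted p = 0.000474), and the integrins Itga3 (log2 fold change -0.53, adjusted p = 0.000700) and Itgb5 (log2 fold change -0.40, adjusted p = 0.00537) fell as well. So did Cald1, caldesmon (log2 fold change -0.34, adjusted p = 0.0278), Myh9, a non-muscle myosin (log2 fold change -0.28, adjusted p = 0.0287), and Lpp, an adhesion scaffold (log2 fold change -0.57, adjusted p = 0.0333). Actn1, Tns1, Plec, Itga3 and Itgb5 kept the call in all 10 fits with 1 IS or control library left out. Cald1 lost it in 6 (adjusted p up to 0.0768, without IS 2), Myh9 in 8 (adjusted p up to 0.0755, without control 3) and Lpp in 6 (adjusted p up to 0.0737, without control 2). Cdh2, the cadherin of neural and mesenchymal cells, was the single called gene of 12 mesenchymal regulators and markers, at 136 to 195 CPM in IS cultures, against 200.3 to 264 CPM in control cultures (log2 fold change -0.55, adjusted p = 0.00475). Vim, the intermediate filament of mesenchymal and glial cells, was at 1208 to 1711 CPM in IS cultures, against 1598 to 1797 CPM in control cultures and did not pass (log2 fold change -0.21, adjusted p = 0.258). The summed level of the fibroblast and meningeal list was 2849, 4742, 3596, 2661 and 2288 CPM in IS cultures, against 6008, 4417, 4296, 4483 and 4185 CPM in control cultures. IS 2 lay within the control range and the other 4 IS libraries lay below every control, and the part of this difference in the changes of matrix and adhesion genes was not tested. Of 13 tested fibroblast and meningeal markers only Thy1 was called, at 3.36 to 9.20 CPM in IS cultures, against 9.07 to 14.6 CPM in control cultures (log2 fold change -1.19, adjusted p = 0.0397), and it lost the call in 8 of the 10 fits with 1 library left out.

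**Figure D4:**
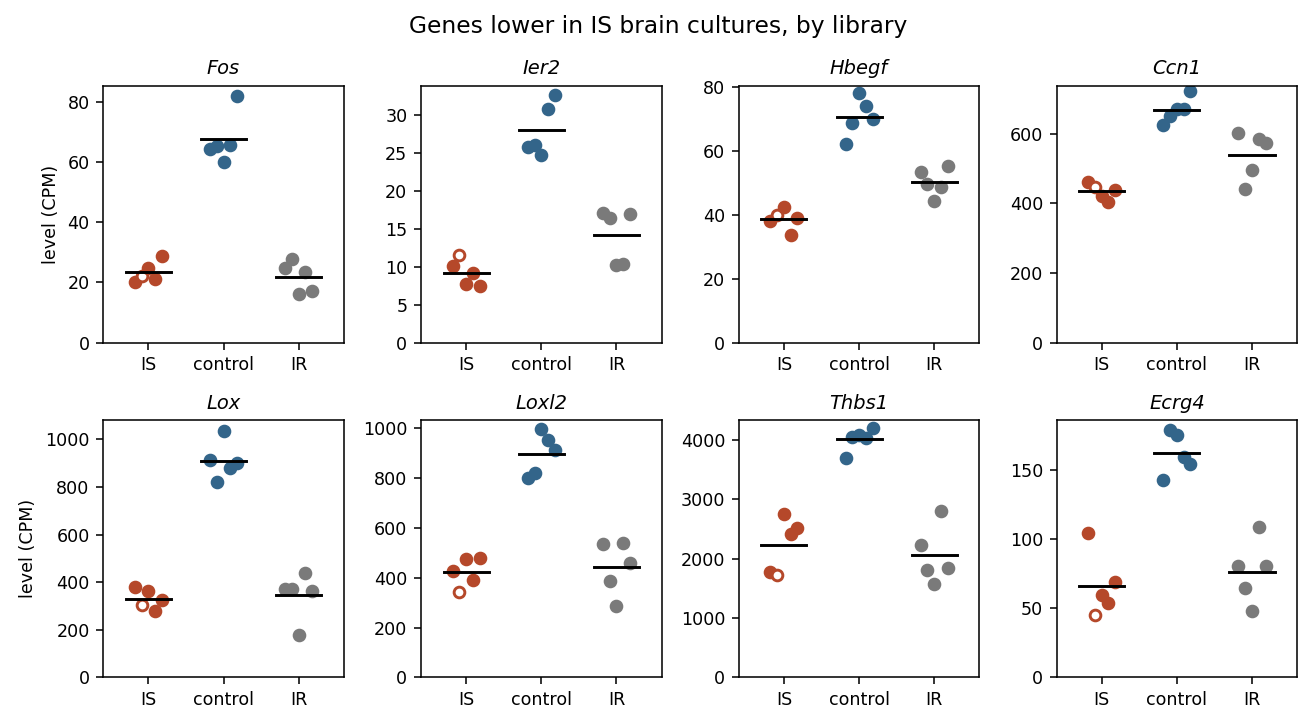
Level in CPM (y axis, linear, from 0) of 8 genes lower in IS cultures, in each IS, control and IR library (x axis), with lines at the group means and IS replicate 2 as an open circle. Each IS library, IS replicate 2 included, lies below each control in all 8 genes.

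Genes that averaged at least 10 CPM and fell furthest included further secreted and signalling genes. Svep1, an adhesion protein of the matrix, was at 9.23 to 18.1 CPM in IS cultures, against 24.4 to 51.1 CPM in control cultures (log2 fold change -1.57, adjusted p = 0.00983). Erfe, erythroferrone, a hormone of iron metabolism, was at 6.06 to 11.2 CPM in IS cultures, against 14.8 to 34.6 CPM in control cultures (log2 fold change -1.50, adjusted p = 0.00118). Enho, which encodes the peptide adropin, was at 24.4, 14.6, 19.1, 21.8 and 21.9 CPM in IS cultures, against 41.5, 52.6, 57.8, 55.4 and 49.2 CPM in control cultures. The groups did not overlap, with a log2 fold change of -1.33 ± 0.16 (adjusted p = 0.000209). Wnt2b, a Wnt ligand, was at 33.8, 53.4, 39.5, 38.9 and 26.8 CPM in IS cultures, against 109, 114, 98.5, 81.6 and 79.5 CPM in control cultures. All 5 IS libraries were below all controls, with a log2 fold change of -1.33 ± 0.15 (adjusted p = 0.000118) with and -1.46 (adjusted p = 5.28e-05) without IS 2. Nox4, an oxidase that makes hydrogen peroxide, was at 17.4 to 24.7 CPM in IS cultures, against 43.3 to 57.6 CPM in control cultures (log2 fold change -1.19, adjusted p = 0.000195). Megf6 was at 12.2 to 27.3 CPM in IS cultures, against 42.6 to 59.2 CPM in control cultures (log2 fold change -1.29, adjusted p = 0.0201). Stmn2, a tubulin-binding protein of neurons, was at 10.5 to 28.1 CPM in IS cultures, against 23.8 to 40.9 CPM in control cultures, with IS 2 alone among the controls (log2 fold change -1.12, adjusted p = 0.0207, with and -1.43, adjusted p = 0.00185, without it). Among the rises that did not rest on IS 2, Strip2 was at 66.2 to 102 CPM in IS cultures, against 11.7 to 40.9 CPM in control cultures (log2 fold change 1.48, adjusted p = 0.00179) and Ppp1r1a, an inhibitor of protein phosphatase, at 19.4 to 24.8 CPM in IS cultures, against 5.96 to 9.69 CPM in control cultures (log2 fold change 1.42, adjusted p = 0.00822). Trf, transferrin, the iron carrier that choroid plexus and oligodendrocytes make, was at 585, 736, 505, 413 and 976 CPM in IS cultures, against 157, 241, 249, 252 and 324 CPM in control cultures, without overlap, with a log2 fold change of 1.39 ± 0.23 (adjusted p = 0.00215). Svep1, Erfe, Enho, Wnt2b, Nox4, Megf6, Strip2, Ppp1r1a and Trf kept the call in all 10 fits with 1 IS or control library left out. Stmn2 lost it in 1 (adjusted p up to 0.0513, without control 3).

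Genes of the interferon response, which cells switch on against viruses, were higher in part. Of 17 tested members 8 rose and 0 fell, with a median of 0.77. The median was 0.73 without IS 2, where 3 rose. The count was 3 without IS 2, 3 without IS 3, 4 without IS 5, 2 without control 1, 3 without control 2, 5 without control 3, 2 without control 4 and 5 without control 5. Xaf1, a target gene linked to cell death, was at 6.27, 7.74, 5.30, 4.04 and 4.90 CPM in IS cultures, against 1.86, 1.51, 2.87, 1.12 and 3.26 CPM in control cultures, with no overlap, a log2 fold change of 1.40 ± 0.28 (adjusted p = 0.00822) with and 1.28 (adjusted p = 0.0184) without IS 2. The log2 fold change was 0.50 (adjusted p = 0.0234) for the transcription factor Stat2, 0.59 (adjusted p = 0.0406) for its partner Irf9 and 1.15 (adjusted p = 0.0273) for Irf7, which amplifies interferon production. Also higher were Oasl2 (log2 fold change 0.89, adjusted p = 0.0418), Ifit3 (log2 fold change 0.79, adjusted p = 0.0455) and Gbp3 (log2 fold change 1.10, adjusted p = 0.0469). Xaf1 was under 3 CPM in controls 1 to 4 and did not meet the filter through the controls, so its call is given as a description. It kept the call in all 10 fits with 1 IS or control library left out. Stat2 lost it in 4 (adjusted p up to 0.0600, without control 1), Irf9 in 7 (adjusted p up to 0.103, without control 4), Irf7 in 4 (adjusted p up to 0.0685, without control 4), Oasl2 in 9 (adjusted p up to 0.0970, without IS 2), Ifit3 in 9 (adjusted p up to 0.100, without control 4) and Gbp3 in 8 (adjusted p up to 0.107, without control 1).

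Of 9 tested genes of peptide presentation on class I molecules, 3 rose and 0 fell, with and without IS 2 (3.37% higher over all tested genes). The count was 0 without control 4. B2m, the shared light chain, was at 385, 398, 403, 345 and 395 CPM in IS cultures, against 272, 323, 329, 233 and 290.0 CPM in control cultures. The lowest IS library was above the highest control, with a log2 fold change of 0.41 ± 0.10 (adjusted p = 0.0224). Tapbp, tapasin, which loads peptides, was at 216 to 235 CPM in IS cultures, against 163 to 199 CPM in control cultures (log2 fold change 0.30, adjusted p = 0.0212). H2-D1, a heavy chain, was at 214 to 253 CPM in IS cultures, against 156 to 221 CPM in control cultures (log2 fold change 0.38, adjusted p = 0.0325). B2m lost the call in 2 (adjusted p up to 0.0561, without control 4), Tapbp in 2 (adjusted p up to 0.0588, without control 4) and H2-D1 in 5 (adjusted p up to 0.0855, without control 4) of the 10 fits with 1 IS or control library left out.

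Genes of splicing regulation whose transcripts are known to keep introns in the nucleus were mostly higher. Of 19 listed genes 13 rose and 0 fell, at a median of 0.48, and 10 rose without IS 2. With each library left out, the count was 9 to 13. The summed level of the list overlapped between groups, at 3672 to 5782 CPM in IS cultures and 4334 to 6065 CPM in control cultures. Rsrp1, an arginine and serine rich protein, was at 291, 335, 296, 283 and 236 CPM in IS cultures, against 162, 127, 162, 165 and 186 CPM in control cultures. The groups were apart, with a log2 fold change of 0.84 ± 0.11 (adjusted p = 0.000268) with and 0.80 (adjusted p = 0.000651) without IS 2. Rbmx, an RNA-binding protein, was at 22.9 to 28.2 CPM in IS cultures, against 10.9 to 18.1 CPM in control cultures (log2 fold change 0.94, adjusted p = 0.000929). Ewsr1, another, was at 152 to 176 CPM in IS cultures, against 107 to 132 CPM in control cultures (log2 fold change 0.45, adjusted p = 0.00153). The splicing factor Srsf5 (log2 fold change 0.50, adjusted p = 0.00655), the cyclins Ccnl2 (log2 fold change 0.62, adjusted p = 0.00571) and Ccnl1 (log2 fold change 0.55, adjusted p = 0.0148), and the kinases Clk4 (log2 fold change 0.55, adjusted p = 0.00999) and Clk1 (log2 fold change 0.43, adjusted p = 0.0486) rose as well. Neat1, the noncoding RNA of nuclear paraspeckles, was at 899.5, 1209, 890.0, 932 and 597 CPM in IS cultures, against 402, 345, 459, 589 and 544 CPM in control cultures, without overlap, with a log2 fold change of 0.95 ± 0.21 (adjusted p = 0.0141). Pnisr (log2 fold change 0.61, adjusted p = 0.0201), Snrnp70 (log2 fold change 0.48, adjusted p = 0.0346) and Ddx5 (log2 fold change 0.21, adjusted p = 0.0480) were also higher. Malat1, another nuclear noncoding RNA, had a log2 fold change of -0.91 (adjusted p = 0.110) and did not pass. Rsrp1, Rbmx, Ewsr1, Srsf5, Ccnl2, Ccnl1, Clk4 and Neat1 kept the call in all 10 fits with 1 IS or control library left out. Pnisr lost it in 2 (adjusted p up to 0.0564, without control 2), Snrnp70 in 8 (adjusted p up to 0.0922, without control 2), Clk1 in 9 (adjusted p up to 0.113, without control 3) and Ddx5 in 9 (adjusted p up to 0.0995, without control 1).

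**Figure D5:**
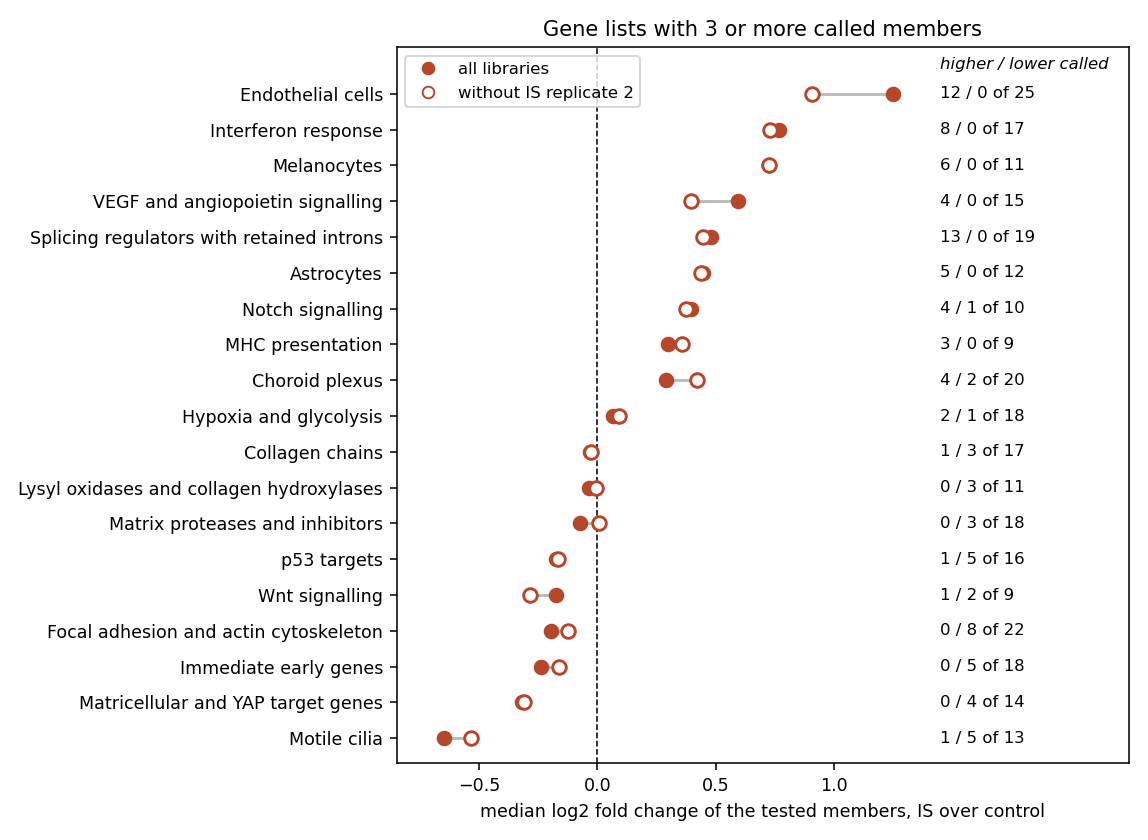
Median log2 fold change of IS over control (x axis) of the tested members of the 19 lists with 3 or more called genes (y axis), with all libraries (filled) and without IS replicate 2 (open), and the number called higher and lower of those tested at the right. The endothelial list moves most between the fits, with medians of 1.25 and 0.91, and the splicing and pigment cell lists keep nearly the same median.

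Of 12 tested astrocyte markers 5 rose and 0 fell, at a median of 0.45. Without IS 2, 3 rose, at 0.44. The count was 3 without IS 2, 3 without control 2 and 3 without control 3. The summed level of the list overlapped between groups, at 1798 to 2510.0 CPM in IS cultures and 2069 to 2308 CPM in control cultures, and was 3403 to 3503 CPM in untreated cultured 4T1 cells. Gja1, Sox9 and Glul, 3 of the 5, averaged 294 ± 6.72, 103 ± 4.99 and 55.6 ± 1.77 CPM in those cells (SD, n = 3), and S100b and Slc1a3 had no count there. The called members besides Gja1 included S100b and Glul. Glul, glutamine synthetase, was at 309 to 403 CPM in IS cultures, against 259 to 285 CPM in control cultures (log2 fold change 0.35, adjusted p = 0.0167). S100b, a calcium-binding protein of glia, was at 25.2, 16.4, 21.5, 16.4 and 28.9 CPM in IS cultures, against 6.81, 10.4, 13.4, 11.5 and 11.0 CPM in control cultures. S100b kept the groups apart, with a log2 fold change of 1.03 ± 0.24 (adjusted p = 0.0175). The glutamate transporter Slc1a3 (log2 fold change 0.51, adjusted p = 0.0273) and the transcription factor Sox9 (log2 fold change 0.44, adjusted p = 0.0377) were also called, and Gfap, the filament of reactive astrocytes, was at 53.6 to 95.6 CPM in IS cultures, against 51.0 to 80.6 CPM in control cultures and did not pass (log2 fold change 0.28, adjusted p = 0.603). Glul and S100b kept the call in all 10 fits with 1 IS or control library left out. Slc1a3 lost it in 5 (adjusted p up to 0.0689, without control 5) and Sox9 in 7 (adjusted p up to 0.0925, without control 2). Of 10 tested markers of the oligodendrocyte lineage and Schwann cells 2 rose and 0 fell, among them the neurotrophin receptor Ngfr (log2 fold change 1.12, adjusted p = 0.0388). The number higher was 0 without IS 2, 0 without IS 5, 0 without control 1, 0 without control 2, 0 without control 4 and 0 without control 5. Over all tested genes, 2806 of 12924 reached an unadjusted p of 0.05 in edgeR. Of 12 tested microglia and macrophage markers 0 were called, and 0 reached that p or were called by DESeq2. Among them, Itgam, an integrin of myeloid cells, was at 19.8, 3.17, 29.4, 39.2 and 50.7 CPM in IS cultures, against 46.4, 50.1, 35.3, 44.1 and 41.4 CPM in control cultures. IS 2 was lowest and IS 5 highest of the IS libraries, which overlapped the controls (log2 fold change -0.61, adjusted p = 0.520). Csf1r, the receptor for the microglial growth factor, was at 20.1 to 74.4 CPM in IS cultures, against 43.2 to 86.6 CPM in control cultures (log2 fold change -0.34, adjusted p = 0.566). Cd68, a lysosomal protein, was at 152 to 611 CPM in IS cultures, against 302 to 426 CPM in control cultures (log2 fold change 0.09, adjusted p = 0.921). Cx3cr1 and P2ry12, which mark resting microglia, and Aif1, a general marker of microglia and macrophages, were too low to be tested.

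The IS and IR groups are named for insulin response, and genes of insulin and insulin-like growth factor signalling were therefore listed. Of 19 tested members 2 fell and 0 rose, with a median of -0.09, and 3 fell without IS 2. With 3.1% lower over all tested genes, 2 members are too few to read as a result about the list. Grb10, an adaptor that restrains the receptors of both hormones, was at 130.0, 166, 168, 139.8 and 136 CPM in IS cultures, against 228, 206, 251, 218 and 220.4 CPM in control cultures. No library overlapped, with a log2 fold change of -0.60 ± 0.09 (adjusted p = 0.00111). Igfbp4, a binding protein of insulin-like growth factors, was at 588, 504, 527, 475 and 313 CPM in IS cultures, against 799.5, 816, 1276, 954 and 698 CPM in control cultures, also without overlap, with a log2 fold change of -0.92 ± 0.21 (adjusted p = 0.0164). The receptor Insr was at 59.2 to 80.4 CPM in IS cultures, against 69.5 to 81.6 CPM in control cultures (log2 fold change -0.13, adjusted p = 0.430). Igf1r, the receptor of insulin-like growth factor 1, was at 189.8 to 251 CPM in IS cultures, against 250.2 to 289 CPM in control cultures (log2 fold change -0.30, adjusted p = 0.0722). DESeq2 called Igf1r with all libraries (adjusted p = 0.0458). The substrate Irs1 was at 46.0 to 73.4 CPM in IS cultures, against 72.7 to 83.6 CPM in control cultures, and passed in edgeR without IS 2 but not with it (log2 fold change -0.36, adjusted p = 0.0641, with and -0.43, adjusted p = 0.0333, without), while DESeq2 called it with all libraries (adjusted p = 0.0450), and Irs2 was at 149 to 198 CPM in IS cultures, against 168 to 208 CPM in control cultures (log2 fold change -0.09, adjusted p = 0.618). Grb10 and Igfbp4 kept the call in all 10 fits with 1 IS or control library left out.

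Among 16 targets of p53, which halts the cell cycle after damage, 5 fell and 1 rose (3.1% lower and 3.37% higher over all tested genes). The number lower was 3 without IS 2, 3 without IS 4, 3 without control 2, 2 without control 3, 3 without control 4 and 3 without control 5. Gdf15, a stress hormone, was at 301, 238, 260.2, 240.0 and 228 CPM in IS cultures, against 415, 377, 463, 349.6 and 332 CPM in control cultures. The groups did not overlap, with a log2 fold change of -0.61 ± 0.11 (adjusted p = 0.00491). Pmaip1, which promotes cell death, was at 57.1 to 86.5 CPM in IS cultures, against 89.5 to 126 CPM in control cultures (log2 fold change -0.60, adjusted p = 0.00634). Cdkn1a, a cell cycle inhibitor that p53 induces, was at 215 to 252 CPM in IS cultures, against 296 to 371 CPM in control cultures (log2 fold change -0.45, adjusted p = 0.0223). Btg2 (log2 fold change -0.34, adjusted p = 0.0302) and Eda2r (log2 fold change -0.38, adjusted p = 0.0320) also fell, and Sesn1 rose (log2 fold change 0.32, adjusted p = 0.0496). Gdf15 and Pmaip1 kept the call in all 10 fits with 1 IS or control library left out. Cdkn1a lost it in 2 (adjusted p up to 0.0626, without control 3), Btg2 in 7 (adjusted p up to 0.0805, without control 4), Eda2r in 8 (adjusted p up to 0.0830, without control 1) and Sesn1 in 8 (adjusted p up to 0.117, without control 2). Over all tested genes, 2806 of 12924 reached an unadjusted p of 0.05 in edgeR. Of 20 genes of mitosis 0 were called (median 0.18), and 2 reached that p. Of 19 tested genes of DNA replication 0 were called (median 0.08), and 1 reached that p. DESeq2 called 0 of either. Mki67, which marks dividing cells, was at 15.1 to 30.3 CPM in IS cultures, against 18.2 to 30.9 CPM in control cultures (log2 fold change -0.07, adjusted p = 0.908).

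Over all tested genes 6.46% were called, and of 18 tested genes of hypoxia and glycolysis 2 rose and 1 fell, the same with and without IS 2. The 2 were Ndrg1 and Pfkp. Ndrg1, a stress-induced gene, was at 32.8 to 39.5 CPM in IS cultures, against 21.9 to 25.8 CPM in control cultures (log2 fold change 0.56, adjusted p = 0.00118). Pfkp, a phosphofructokinase, was at 189 to 237 CPM in IS cultures, against 119.9 to 155 CPM in control cultures (log2 fold change 0.58, adjusted p = 0.00393). P4ha1 was the lower gene. Of 18 tested genes of fatty acid oxidation and peroxisome proliferator receptors 1 rose and 1 fell. Plin2, a coat protein of lipid droplets, fell, at 1520.3 to 2027 CPM in IS cultures, against 2112 to 2516 CPM in control cultures (log2 fold change -0.34, adjusted p = 0.0397, with and -0.26, adjusted p = 0.107, without IS 2). Without IS 2, 3 rose, among them Pparg and Acadl. Acadl, an acyl-CoA dehydrogenase, had log2 fold changes of 0.24 (adjusted p = 0.0533) with and 0.28 (adjusted p = 0.0427) without IS 2. DESeq2 called Acadl with all libraries (adjusted p = 0.0135). Ndrg1 and Pfkp kept the call in all 10 fits with 1 IS or control library left out. Plin2 lost it in 8 (adjusted p up to 0.107, without IS 2).

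The following lists had at most 2 called members in a direction, against 3.37% higher and 3.1% lower over all tested genes. They are given as values of those members and not as results about the lists. Of 8 tested epithelial genes, Krt19, a keratin, rose, at 4.79 to 10.7 CPM in IS cultures, against 3.49 to 4.26 CPM in control cultures (log2 fold change 0.92, adjusted p = 0.0211). Cldn4, a tight junction protein, fell and was at 72.8, 42.9, 37.7, 27.6 and 32.5 CPM in IS cultures, against 111, 104, 91.0, 73.3 and 71.7 CPM in control cultures. IS 1 lay within the control range, and the log2 fold change was -1.08 ± 0.22 (adjusted p = 0.00828). Krt8 (log2 fold change -0.23, adjusted p = 0.688), Krt18 (log2 fold change -0.08, adjusted p = 0.809) and Cdh1 (log2 fold change -0.70, adjusted p = 0.533) did not pass. Of 9 tested Wnt genes 1 rose, the inhibitor Sfrp1 (log2 fold change 0.94, adjusted p = 0.0351), and 2 fell, the ligands Wnt9a (log2 fold change -0.66, adjusted p = 0.0388) and Wnt5a (log2 fold change -0.37, adjusted p = 0.0455). Each of the 10 fits with a library left out called fewer than 2 of them lower. Wnt2b, the ligand described above that fell further, is not a member of this list. In 23 tested genes of NF-kB signalling and cytokines 1 rose, the monocyte chemokine Ccl2, at 78.9, 105, 54.9, 40.6 and 35.7 CPM in IS cultures, against 23.5, 40.0, 29.4, 26.2 and 33.7 CPM in control cultures. IS 2 was the highest and IS 5 lay within the control range, with a log2 fold change of 1.04 ± 0.28 (adjusted p = 0.0329) with and 0.80 (adjusted p = 0.0736) without it. Of 13 NRF2 targets and metallothioneins 1 fell, the glutathione transferase Gsta4, at 268 to 569 CPM in IS cultures, against 617 to 826 CPM in control cultures (log2 fold change -0.86, adjusted p = 0.0148). Cldn4 and Gsta4 kept the call in all 10 fits with 1 IS or control library left out. Krt19 lost it in 1 (adjusted p up to 0.0546, without control 2), Sfrp1 in 6 (adjusted p up to 0.0792, without control 4), Wnt9a in 8 (adjusted p up to 0.105, without control 3), Wnt5a in 9 (adjusted p up to 0.102, without control 1) and Ccl2 in 6 (adjusted p up to 0.0803, without control 1). Of the 4 tested neuronal genes Stmn2 was the 1 called. No member was called in either direction by edgeR in 12 further lists. Over all tested genes, 2806 of 12924 had an unadjusted p under 0.05 in edgeR, and the counts that follow stand against that share. In these lists, the count at that p was 9 of 22 for the unfolded protein and integrated stress responses and 4 of 15 for the exosome machinery. It was 4 of 13 for fatty acid synthesis, 4 of 13 for genes of the mitochondrial genome and 3 of 17 for the transforming growth factor beta pathway. It was 2 of 22 for cholesterol synthesis, 2 of 30 for cytosolic ribosomal proteins and 2 of 12 for pericytes and smooth muscle. It was 1 of 19 for nuclear genes of oxidative phosphorylation, 1 of 4 for adipocyte markers, 1 of 3 for neutrophil markers and 0 of 1 for lymphocyte markers. DESeq2 called 2 genes of the stress responses and 1 each of the adipocyte, oxidative phosphorylation, exosome and transforming growth factor beta lists. No erythroid marker was high enough to test.

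Whether the changes set IS apart from IR cultures was tested directly in the same fit. With all libraries, 6 genes (0.0464% of those tested) differed between IS and IR, of which 3 were higher and 3 lower. At an unadjusted p under 0.05 there were 2344, and DESeq2 called 604. Rsrp1 was one of the higher, with a mean of 288 ± 35.4 CPM in IS and 171 ± 19.2 CPM in IR cultures (SD, n = 5 each), at 0.75 ± 0.11 (adjusted p = 0.0240). Pkdcc, a secreted kinase, was higher (log2 fold change 0.55, adjusted p = 0.0379), as was 1 gene with a clone name. Pde10a, a phosphodiesterase (log2 fold change -0.72, adjusted p = 0.0442), Cemip2, a hyaluronidase (log2 fold change -0.58, adjusted p = 0.0240), and 1 gene with a clone name were lower. Against control, Pde10a was at 5.32 to 6.86 CPM in IS cultures, against 7.74 to 9.77 CPM in control cultures and fell (log2 fold change -0.51, adjusted p = 0.0218), while Pkdcc (log2 fold change 0.15, adjusted p = 0.319) and Cemip2 (log2 fold change 0.08, adjusted p = 0.680) did not pass. Pde10a lost the call in 3 (adjusted p up to 0.0590, without control 2) of the 10 fits with 1 IS or control library left out. IS 2 was another of these libraries.

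The result depended on IS 2. Without that library 597 of 12872 genes (4.64%) were higher in IS than in IR cultures and 542 (4.21%) lower. Without IS 1 there were 150 higher and 50 lower, and without the library of column IR4, 42 and 103. Without IS 2, 21 of 25 endothelial markers were lower in IS than in IR cultures and 0 higher (median -1.37), and 11 of 12 microglia and macrophage markers were higher and 0 lower (median 1.45). None of these was among the 6 genes called with all libraries, and IS 2 had the highest endothelial and the lowest microglia sum of the IS libraries, so leaving it out in part fixes these counts and they are given as a description. Over the endothelial markers the median with all libraries was -0.98. Pecam1 averaged 50.1 CPM in the other 4 IS and 159 ± 43.1 CPM in IR cultures, at -1.66 ± 0.29 (adjusted p = 0.00380). Cldn5 differed by -1.48 ± 0.38 (adjusted p = 0.0233) and Angpt2 by -1.12 ± 0.17 (adjusted p = 0.00262). Csf1r averaged 53.2 CPM in the 4 IS and 19.4 ± 6.08 CPM in IR cultures, at 1.48 ± 0.27 (adjusted p = 0.00478), and Itgam differed by 1.96 ± 0.41 (adjusted p = 0.00778). Choroid plexus genes were not called in either direction (20 tested), nor were lysyl oxidases and collagen hydroxylases (11), motile cilia genes (13) or p53 targets (16). For Lox the log2 difference was -0.02 ± 0.18 (adjusted p = 0.966), for Fos 0.14 ± 0.16 (adjusted p = 0.646) and for Tyrp1 0.42 ± 0.35 (adjusted p = 0.518). Immediate early genes differed in both directions, with 2 higher and 6 lower of 18, among them Egr1 at -0.84 ± 0.18 (adjusted p = 0.00987) and Ier2 at -0.71 ± 0.18 (adjusted p = 0.0200). Hbegf was lower in IS than in IR cultures, at -0.38 ± 0.09 (adjusted p = 0.0155).

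The culture experiment gave separate libraries and separate controls for the IS exosomes, with 3 libraries of 4T1 cells given exosomes of IS adipocytes and 3 of untreated cells. There, 1086 of 10888 tested genes (9.97%) were higher and 1015 (9.32%) lower. Of the 542 genes called in brain cultures and tested in both experiments, 128 were also called in cultured 4T1 cells. These 128 are 23.6% of the brain calls and 6.41% of the 1997 culture calls tested in both. Of the 10348 genes tested in both, 1997 were called in culture and 542 in brain cultures, so these shares lie near those over all genes. The overlap was not tested and is not read as a shared response. Of the 128, 40 were higher and 27 lower in both, 14 were higher in brain and lower in culture, and 47 lower in brain and higher in culture.

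Among genes that went the same way, Thbs1 was at 353, 330.1 and 344 CPM in cultured cells given IS exosomes, against 625, 652 and 644 CPM in untreated cells, at -0.90 ± 0.04 (adjusted p = 3.93e-11). Ccn1 was at 203, 170.2 and 194 CPM in cultured cells given IS exosomes, against 281, 288 and 282 CPM in untreated cells, at -0.58 ± 0.05 (adjusted p = 6.75e-07). Junb was at 219.9, 226 and 232 CPM in cultured cells given IS exosomes, against 264, 271 and 256 CPM in untreated cells, at -0.22 ± 0.04 (adjusted p = 0.000507). Itga3 was at 2234, 2276 and 2272 CPM in cultured cells given IS exosomes, against 2701, 2695 and 2839 CPM in untreated cells, at -0.28 ± 0.03 (adjusted p = 1.39e-06). All 4 also fell in brain cultures, at -0.85, -0.62, -0.68 and -0.53. Ccl2, higher in brain cultures, was at 18.5, 20.9 and 17.5 CPM in cultured cells given IS exosomes, against 1.62, 3.19 and 2.68 CPM in untreated cells, at 2.92 ± 0.17 (adjusted p = 5.01e-09). Zfp36, which fell in brain cultures, was at 11.4, 10.4 and 8.62 CPM in cultured cells given IS exosomes, against 17.4, 14.6 and 14.3 CPM in untreated cells, at -0.61 ± 0.13 (adjusted p = 0.00431). Prkch, a protein kinase C, and Sh2d3c, an adaptor, rose in both, at 1.10 (adjusted p = 0.0200) and 0.79 (adjusted p = 0.00975) in brain cultures and at 0.92 (adjusted p = 0.00176) and 1.13 (adjusted p = 0.00412) in cultured cells. In brain cultures, Prkch was at 25.2 CPM in IS 2, against 9.27 to 11.9 CPM in the other IS libraries. Its brain call was lost without control 5 (adjusted p = 0.0518 in edgeR).

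Gsta4 and Slc22a23 went opposite ways in the 2 experiments. Gsta4 was at 14.5, 14.1 and 14.8 CPM in cultured cells given IS exosomes, against 7.38, 6.17 and 6.17 CPM in untreated cells, at 1.14 ± 0.13 (adjusted p = 8.79e-06). Slc22a23 was at 37.0, 33.7 and 35.6 CPM in cultured cells given IS exosomes, against 26.0, 23.7 and 29.7 CPM in untreated cells, at 0.42 ± 0.09 (adjusted p = 0.00242). Both fell in brain cultures, at -0.86 and -1.05, and rose in culture. Whrn, a scaffold of stereocilia, and Mapk13, a stress kinase, fell in brain cultures (log2 fold change -0.54, adjusted p = 0.00186, and -0.79, adjusted p = 0.0153) and rose in culture (1.14 and 0.68). Tyrp1, Pecam1, Cldn5, Ttr, Fos and Lox were too low in cultured 4T1 cells to be tested, with Tyrp1, Cldn5 and Ttr at 0 counts in all 6 libraries. The difference between the 2 experiments was not tested, since each was normalised within its own table.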

How the data were processed

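The brain table holds expected counts per gene, which the authors deposited as RSEM estimates, per the file headers and values. Tools in the submitters' processing notes are featureCounts, STAR, DESeq2 and Trimmomatic, none with a version, and the builds are GRCm38 (mm10) and GRCm39 (mm39). The sources used here do not say which build and counting settings made this table. Expected counts were rounded to whole numbers. Of 55487 gene identifiers, 52139 had a symbol in the reference table.

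The 5 IS, 5 control and 5 IR brain libraries, grouped by their titles, had totals of 8790616 to 13272583. Genes with at least 3 CPM in at least 3 libraries entered 1 edgeR model (version 4.0.16, R 4.3.3) with TMM scaling and no covariate, and contrasts were tested by quasi-likelihood. Adjustment of the p-values, by Benjamini and Hochberg, covered every tested gene, with a threshold of 0.05. CPM are rounded counts over the TMM-scaled sum of the tested genes, while the filter used counts over the whole library total. The SE was derived from the test, as the absolute log2 fold change over the square root of the quasi-likelihood F statistic. The culture table was fitted alone by the same steps. Of its columns, 3 matched no sample label and were not used. DESeq2 1.42.0 on the same genes and leaving out each library were among the alternatives. No pair of libraries agreed within sampling noise. IS and control libraries share numbers 1 to 5, but same-numbered libraries did not deviate together, so the numbers were not used to pair them.

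On simulated data for 5 IS against 5 control libraries (12924 genes, 200 changed), the fit found 94% of 2-fold and 57% of 1.5-fold changes, with 5 false calls. The simulation gave every gene the same spread and held no IR group and no library set apart as IS 2 is. Its rates describe that setting only and do not carry over to the calls above. Promoters came from RefSeq (GRCm38.p6), matched by symbol, since no sequence accompanied the counts. Figures used matplotlib 3.10.9.

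The members and all gene lists were chosen with earlier results of these data known. Of these, 39 lists were written first, and 6 (choroid plexus, pigment cells, motile cilia, splicing regulators, focal adhesion, lysyl oxidases and collagen hydroxylases) were added after values were seen, so their counts carry no independent weight. Genes were named by rule, as the 12 largest rises and 12 largest falls among called genes averaging at least 10 CPM, the same among genes also called without IS 2, up to 4 members of smallest p of each of the 39 lists, the 5 called genes that IS 2 moved most, and Insr, Irs1, Irs2, Igf1r and Epcam. Other members of the lists were named where a list's counts are given, and these and Zfp36, Slc22a23, Tubb2b, Slc5a6, Ptgds, Prkch, Sh2d3c, Whrn, Mapk13, Cemip2, Pde10a and Pkdcc were chosen after their values were seen. Some genes that this rule names, and that the counts of the lists include, are not reported here.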

Additional observations from a re-analysis of the deposited data

Results flagged for a closer look

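Of 364 groups of 5 libraries examined, over the genes named and the marker sums, 37 held a library whose gap to its nearest neighbour was more than 0.71 of the range of the group, and chance gives this in about 1 in 20. IS 2 was that library 14 times. The genes examined include 5 chosen because IS 2 moved them most and many endothelial markers that vary together, so this tally was in part fixed by the choice of genes and is not comparable with the share that chance gives. It stood above the other 4 IS libraries, whose range follows in parentheses, at 138 CPM for Ptprb (17.3 to 50.1), 52.2 CPM for Mmrn2 (7.24 to 19.3), 28.1 CPM for Stmn2 (10.5 to 13.4), 10.4 CPM for Zfp366 (0.678 to 3.42) and 76.7 CPM for Esam (26.6 to 40.0). It was also above them at 25.4 CPM for Sox7 (3.24 to 9.53), 72.3 CPM for Kdr (28.9 to 37.7), 65.0 CPM for Flt1 (26.0 to 32.7), 421 CPM for Eng (202 to 251) and 12.3 CPM for Jag2 (2.93 to 5.02). The remaining values were 195 CPM for Cdh2 (136 to 147), 52.1 CPM for Wnt5a (34.4 to 38.1), 25.2 CPM for Prkch (9.27 to 11.9) and 2059 CPM for the summed endothelial markers (843 to 1167). Ptprb, Mmrn2, Esam, Sox7, Kdr, Flt1 and Eng belong to the endothelial list, and for Stmn2, Cdh2 and Wnt5a, which fell in IS cultures, IS 2 was the IS library nearest to the controls.

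The other 4 IS libraries gave 4 such values. IS 1 stood above the rest of its group at 132 CPM for Krt18 (74.6 to 84.2). IS 5 stood above the rest of its group at 102 CPM for Strip2 (66.2 to 75.1), 12.1 CPM for Oca2 (2.70 to 5.32) and 624 CPM for Ccn2 (356 to 402). Among the controls, whose own range without that library follows likewise, there were 19. Control 3 was highest at 168 CPM for Ccn5 (86.8 to 93.8), 823 CPM for Col18a1 (658 to 696), 44.2 CPM for Wnt9a (29.9 to 33.9) and 826 CPM for Gsta4 (617 to 663). Control 3 was lowest at 302 CPM for Cd68 (390.1 to 426), 199 CPM for Col12a1 (268 to 278), 136 CPM for Lpp (161 to 169) and 912 CPM for the summed microglia and macrophage markers (1122 to 1205). Control 1 was highest at 11.7 CPM for Sox18 (7.74 to 8.86), 42.8 CPM for Eda2r (35.8 to 37.7), 30.9 CPM for Mki67 (18.2 to 21.3) and 6008 CPM for the summed fibroblast and meningeal markers (4185 to 4483). Control 1 was lowest at 74.5 CPM for Kcne2 (123 to 139). Control 5 was highest at 81.9 CPM for Fos (59.8 to 65.8). Control 5 was lowest at 0.176 CPM for Zfp366 (0.916 to 0.958), 1.58 CPM for Jag2 (2.17 to 2.34) and 139.8 CPM for Acadl (151 to 155). Control 2 was highest at 1.05 CPM for the summed erythroid markers (0 to 0.106). Control 4 was highest at 1.63 CPM for Dll4 (0.704 to 0.852).

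For 12 genes named above, the log2 fold change of IS over control was called in both experiments with opposite signs, and no IS library overlapped a control in either. The genes lower in brain cultures and higher in cultured 4T1 cells had log2 fold changes of -1.05 in brain and 0.42 in culture for Slc22a23, -0.56 in brain and 0.51 in culture for Ccn4, -0.82 in brain and 0.56 in culture for Col12a1, -0.48 in brain and 0.17 in culture for Col18a1, -0.45 in brain and 0.23 in culture for Plec and -0.40 in brain and 0.41 in culture for Itgb5. The others were at -0.34 in brain and 0.39 in culture for Plin2, -0.86 in brain and 1.14 in culture for Gsta4, -0.92 in brain and 0.34 in culture for Igfbp4, -0.54 in brain and 1.14 in culture for Whrn and -0.79 in brain and 0.68 in culture for Mapk13. In the other direction the changes were 0.30 in brain and -0.57 in culture for Tapbp. The difference between the experiments was not tested.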

How the results depend on the processing

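All 139 called genes examined here kept their direction in each alternative that tested them. Of the 139, 76 kept the call in each, and the others lost it in at least 1. Genes given above only with all libraries also lost it without IS 2 in edgeR. The adjusted p was 0.0908 for Kit, 0.0637 for Tppp3, 0.0609 for Capsl, 0.0507 for Irf7, 0.0810 for Irf9 and 0.0519 for Ifit3. It was 0.0914 for Gbp3, 0.0569 for Slc1a3, 0.0740 for Sox9, 0.0586 for Ngfr, 0.0686 for Lpp, 0.0882 for Thy1 and 0.0588 for Cdkn1a. It was 0.0594 for Eda2r, 0.0702 for Sesn1, 0.0970 for Wnt9a, 0.0512 for Pde10a, 0.0727 for Snrnp70, 0.0662 for Ddx5 and 0.0943 for Clk1. Nrarp, Zfp366, Gimap8, Dll4 and Jag2 were not tested in every alternative. With 5 libraries a group and one of them nearer to another group, counts of calls moved with the libraries kept. Against control, with all libraries, 435 genes were higher and 400 lower. DESeq2 called 684 higher. Leaving out each library gave 226 to 438 higher and 239 to 434 lower. The replicate block, which the data give no ground for, gave 258 and 255. Without IS 2 the counts were 323 and 285, with DESeq2 535 and 518, with the block 108 and 140, and with each further library left out 147 to 378 higher and 204 to 305 lower. The overlap with cultured cells and the marker sums moved by less than 1.5 times or by less than the spread.

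Between IS and IR, DESeq2 called 330 higher and 274 lower, against 3 and 3 in edgeR, and the range over libraries left out was 0 to 597 and 0 to 542. Of the genes that the rule takes from the 39 first lists and from the fits, 0 were called there in edgeR (Rsrp1, which was called, is of an added list), 3 and 18 in DESeq2, and 0 to 11 and 0 to 47 with libraries left out. A replicate block between IS and IR was not run, since the IR columns carry no sample number.

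Of 28 genes that were not called, 6 changed sign. Over libraries left out, the log2 fold change was -0.121 to 0.205 for Mitf, -0.224 to 0.093 for Vwf, -0.0718 to 0.0135 for Slc2a1, -0.108 to 0.318 for Cd68, -0.216 to 0.0762 for Mki67 and -0.218 to 0.0565 for Xist. It was -0.0832 for Cd68 under the block and 0.0410 for Vwf with neither IR libraries nor IS 2. Genes of few CPM are limited by depth.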
